A study of Mus musculus with 2 samples.

Results

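The genes described here are 10 chemokines other than the neutrophil-attracting group, namely the CC chemokines Ccl2, Ccl7, Ccl9, Ccl11 and Ccl20 and the CXC chemokines Cxcl10, Cxcl12, Cxcl14, Cxcl16 and Cxcl17. They were taken by symbol from the 27998 genes of the count tables, and all 10 were present once. The question was which cells of a lung organoid, the epithelium or its stromal partners, held the transcripts of each chemokine, and how the levels stood after IL-1β. SPC lineage-labeled AT2 cells (SPC-CreERT2;R26R-tdTomato, labeled by tamoxifen), the surfactant-producing progenitors of the alveolus, were grown in Matrigel with lung stromal cells, and the co-culture received PBS (control) or IL-1β. Both co-cultures thus started from epithelial cells sorted for the same label. Their stroma had been expanded in culture and depleted of CD31+, EpCAM+ and CD45+ cells, so neither co-culture is a model of chemokine supply from leukocytes or vessels. The label was not read in the libraries here, so the lineage of the sequenced cells was not tested. The design text gives 2 weeks of culture, a legend of the study gives a later day, and the dose of IL-1β also differs between its legend and methods. Droplet-based scRNA-seq (10x Genomics, 3' ends, 1 library per condition) gave raw counts of unique molecular identifiers (UMIs), each of which marks 1 captured transcript.

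Chemokines are small secreted proteins that bind to glycosaminoglycans on cell surfaces and matrix and guide cells that carry the matching G protein-coupled receptor. CC and CXC chemokines are named for the spacing of their first cysteines. Some, such as Cxcl12, are made constantly by fibroblasts, whereas others, such as Ccl2, Ccl20 and Cxcl10, are switched on by IL-1, TNF or interferons through factors such as NF-kB. In the lung they recruit monocytes, eosinophils, lymphocytes and dendritic cells to the alveolus and the airway.

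After the cell filter, 1285 control and 2583 IL-1β cells were epithelial and 796 control and 475 IL-1β cells were stromal. The libraries held 33965848 and 41220175 UMIs, with medians of 14613 and 11496.5 per barcode. Levels are UMIs of a gene per 1000000 UMIs of a cell group (CPM), with exact Poisson 95% intervals. The 5 epithelial markers summed to 1247 CPM in control epithelium and 67.7 in control stroma, and the 7 stromal markers to 984 and 8824. Transcripts of each class thus appeared in the other. Scrublet marked 0.0583% of cells, so doublets remained, and 11 barcode sequences occurred in both libraries. Of 8 immune markers, 4 (Ptprc, Adgre1, Laptm5 and Cd52) were at 0 in IL-1β stroma, whereas 6 control stromal cells carried 3 or more. Endothelial markers summed to 2.51 CPM in control stroma and 43.1 in IL-1β stroma, where 4 cells carried 3 or more of 5. With 1 library per condition there is no replicate and no test, and all intervals cover counting error only. A ratio was called past 2-fold when the limit of its interval nearest 1 lay beyond 2, for genes with at least 20 UMIs over both groups.

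Promoter windows are shown for Ccl20 and Cxcl10, the member with the highest epithelial ratio and a member that stood in opposite directions in epithelium and stroma. The RefSeq table of promoters (GRCm38.p6) held windows for 5 of the 10 members, Ccl9, Ccl20, Cxcl10, Cxcl12 and Cxcl14. Capitals mark matches, on either strand, to a reduced NF-kB pattern (3 G, 5 bases of any kind, 2 C) or a reduced interferon-response pattern (3 T and a C, 2 bases of any kind, 3 T and a C) in the 250 bases before the start site. Overlapping matches are merged.
Ccl20, chr1:83116516-83116765, + strand: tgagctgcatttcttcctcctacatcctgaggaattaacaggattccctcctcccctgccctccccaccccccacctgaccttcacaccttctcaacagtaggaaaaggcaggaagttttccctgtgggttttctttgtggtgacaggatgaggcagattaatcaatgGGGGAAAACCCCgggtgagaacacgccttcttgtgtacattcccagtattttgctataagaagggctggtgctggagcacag
Cxcl10, chr5:92348890-92349139, − strand: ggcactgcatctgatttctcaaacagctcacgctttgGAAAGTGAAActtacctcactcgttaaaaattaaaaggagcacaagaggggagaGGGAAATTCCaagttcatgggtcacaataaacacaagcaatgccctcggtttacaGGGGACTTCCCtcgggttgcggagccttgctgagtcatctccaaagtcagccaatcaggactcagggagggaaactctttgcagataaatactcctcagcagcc
In the Ccl20 window the NF-kB pattern began 82 bases before the start site, as 3 overlapping matches. In the Cxcl10 window it began 159 and 104 bases before the start, and the interferon-response pattern 213 bases before it. The first pattern was in the windows of Ccl9, Ccl20, Cxcl10 and Cxcl12 and in 45.8% of all 32851 windows, and the second in those of Cxcl10 and Cxcl14 and in 2.98% of all windows. These matches are letters in a window and not measured binding.

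In the control library most members were stromal. Of the 10 members, 8 were higher past 2-fold in stromal than in epithelial cells (18.4% of 13394 genes tested were) and 1, Cxcl17, was lower (12.3% of genes). In the IL-1β library 4 were higher in stroma (12.9% of 13448 genes), and 3, Ccl9, Ccl20 and Cxcl17, were lower (15.5%). Ccl9 and Ccl20 were lower there only with 2 small epithelial clusters included, of 34 and 9 IL-1β cells. Without these clusters the ratio of stroma to epithelium was 0.338 (0.0381 to 1.40) for Ccl9 and 1.84 (1.58 to 2.13), that is toward stroma, for Ccl20. The median log2 ratio of stroma to epithelium over all genes tested was 0.19 in control and -0.23 in IL-1β. The stromal share of a gene's UMIs also rests on the number of cells of each class, which was lower for stroma in the IL-1β library.

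**Figure D1:**
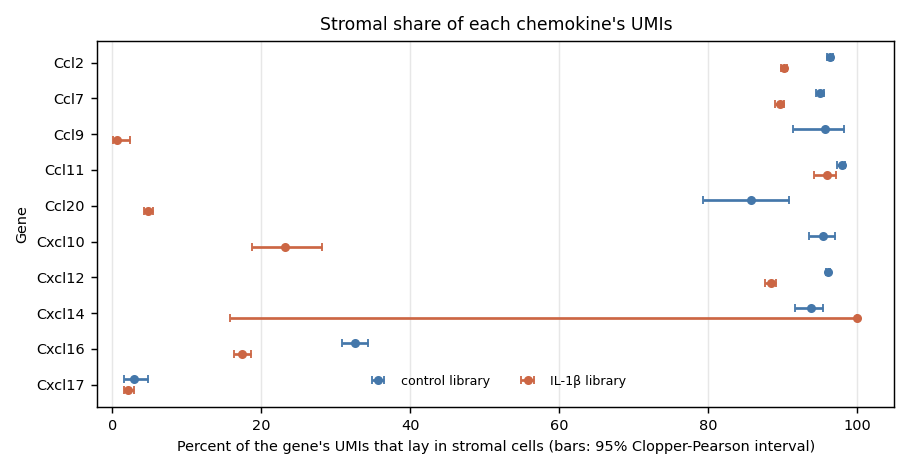
Percent of each chemokine's UMIs that lay in stromal cells (x axis) for the 10 genes (y axis) in the control (blue) and IL-1β (orange) libraries, with 95% Clopper-Pearson intervals. Ccl9, Ccl20 and Cxcl10 lay at 85.8% or above in control and at 23.2% or below in IL-1β, and the Cxcl14 point in IL-1β rests on 2 UMIs. For Cxcl10 the IL-1β levels were 8.04 CPM in stroma and 8.07 in epithelium, so its share there reflects the larger UMI total of the epithelium.

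Ccl2 and Ccl7, neighboring genes on chromosome 11 (GRCm38, GENCODE M21: Ccl2, ENSMUSG00000035385, chr11:82035571-82037453; Ccl7, ENSMUSG00000035373, chr11:82045712-82047525, both + strand), encode ligands that draw monocytes through Ccr2. Ccl2 stood at 843 CPM (interval 827 to 858) in control stroma and 2123 in IL-1β stroma, a 2.52-fold higher level (2.46 to 2.58). Ccl7 stood at 509 and 1103 CPM, 2.17-fold higher (2.10 to 2.24). Both genes were therefore abundant in control stroma and higher past 2-fold in IL-1β stroma. Ccl7 lay close to the limit: it was 2.06-fold higher (1.99989 to 2.13) without the 3 cells with the most Ccl7 UMIs in each group and 1.99-fold higher (1.93 to 2.06) as a mean over cells, neither past 2-fold. Over the stromal clusters shown for each library, Ccl2 was lowest in the control cluster led by Prlr and Bglap2 (193 CPM). It was highest in the 18 IL-1β cells of the cluster led by Fmod and Fam150a (5614), of which 4 carried 3 or more endothelial markers. Of 796 control stromal cells, 591 held a Ccl2 UMI, 539 a Ccl7 UMI and 447 both. Thus 75.6% of those with a Ccl2 UMI also had a Ccl7 UMI and 82.9% the reverse. In 475 IL-1β stromal cells the counts were 430, 417 and 384, and the shares 89.3% and 92.1%. Most IL-1β stromal cells held each gene, so these 2 shares lie near those over all IL-1β stroma and are not read as joint detection. Over single cells Pearson's r of their log-normalized levels was 0.455 in 796 control and 0.541 in 475 IL-1β stromal cells, a description of cells that share a library and differ in depth. Over the 24 groups of cluster and library, the gene with the level pattern most like both was Grem1, a secreted BMP antagonist (r = 0.985 for Ccl2 and 0.98 for Ccl7). The 24 groups span epithelium and stroma, so here and below a high r in part reflects the difference between the classes.

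In the epithelium Ccl2 stood at 22.5 CPM in control and 69.8 in IL-1β, 3.10-fold higher (2.80 to 3.45), and Ccl7 at 18.8 and 39.0, 2.07-fold higher (1.84 to 2.34), which is not past 2-fold. These levels were 2.67% and 3.29% of the stromal Ccl2 level and 3.70% and 3.53% of the stromal Ccl7 level. The 7 stromal markers, which epithelial cells should largely lack, gave epithelial levels with a median of 2.14% of stromal in control (1.32% to 23.9%, the highest being Sparc, which reached 97.4% in AT1-like cells) and 2.17% in IL-1β (1.66% to 13.4%). Both genes lay above the other 6 markers and below Sparc. Between epithelial groups Ccl2 ran from 18.1 to 23.4 CPM in control and from 55.8 to 84.5 in IL-1β. Low epithelial transcription and stromal transcripts in epithelial barcodes were not told apart for either gene, so these values are not read as epithelial expression. With each cell thinned to 5000 UMIs, 10.6% of control and 29.3% of IL-1β epithelial cells held a Ccl2 UMI, against 58.2% and 78.2% of stromal cells. Before thinning these shares were 27.0%, 52.7%, 74.2% and 90.5%.

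**Figure D2:**
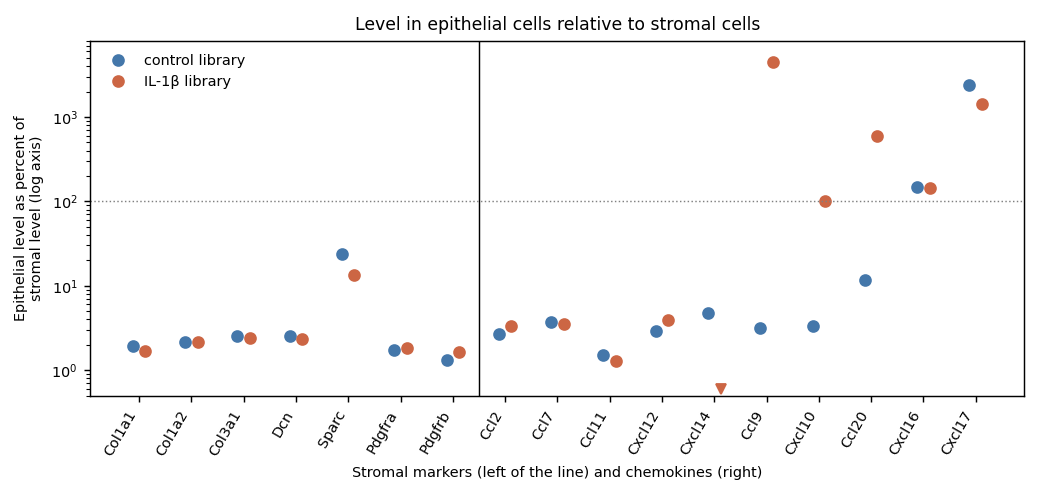
Level in epithelial cells as a percent of the level in stromal cells (log axis) for 7 stromal markers (left of the vertical line) and the 10 chemokines (right), in the control (blue) and IL-1β (orange) libraries. The dotted line marks equal levels and the triangle a count of 0. Ccl2, Ccl7, Ccl11 and Cxcl12 lie between 1.30% and 3.98%, near the markers other than Sparc, whereas Cxcl16 and Cxcl17 lie above 100% in both libraries.

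Ccl11, or eotaxin, the Ccr3 ligand that attracts eosinophils (ENSMUSG00000020676, chr11:82057823-82062955, + strand), was a stromal transcript at 195 CPM in control (188 to 203) and 81.3 in IL-1β (75.7 to 87.3). It was 2.40-fold lower in IL-1β stroma (2.21 to 2.60). Relative to the median of all genes, which stood at a log2 ratio of -0.33 in this comparison, the ratio was 0.523 and the gene no longer past 2-fold. Ccl11 was unevenly spread over stromal cells: 18 of 796 control cells held 50% of its UMIs, as did 4 of 475 IL-1β cells. Its control levels ran from 3.61 CPM in the Fmod-led cluster to 707 in the cluster led by Cadps and Nkd2, and in IL-1β 94.8% of its stromal UMIs lay in the cluster led by Dcn and Mt2, with 35.4% of the stromal cells. That cluster held 168 IL-1β and 0 control cells. In epithelium its 56 control and 33 IL-1β UMIs came to 1.5% and 1.30% of the stromal level, within the range of the stromal markers in control and below it in IL-1β. Nrep (r = 0.927), Chodl and Cygb had the patterns most like it over the 24 groups.

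Cxcl12, the Cxcr4 ligand made by fibroblasts that retains lymphocytes and progenitors in tissue (ENSMUSG00000061353, chr6:117168535-117181367, + strand), held the most UMIs of any member in the control library. It stood at 1228 CPM in control stroma and 682 in IL-1β stroma, a 1.80-fold lower level (1.75 to 1.85) that is not past 2-fold. After thinning, 85.8% of control and 68.3% of IL-1β stromal cells held a Cxcl12 UMI (92.2% and 82.9% before), so the transcript was widespread in both libraries. Levels ran widely over stromal clusters. Cxcl12 was at 137 CPM in the control cluster led by Cadps and Nkd2 and 2132 in control cells of the Fmod-led cluster, and at 57.2 in the IL-1β cluster led by Mmp10 and Il11 and 926 in that led by Dcn and Mt2. Epithelial levels, 35.6 in control and 27.2 in IL-1β, were 2.90% and 3.98% of stromal again above the markers other than Sparc and below Sparc. Lox (r = 0.946), Rspo3 and Foxc2 followed it most closely over groups.

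Cxcl14, a homeostatic chemokine of epithelia and fibroblasts (ENSMUSG00000021508, chr13:56288643-56296551, − strand), was close to absent from the IL-1β library. Control stroma held 660 UMIs (48.7 CPM, 45.1 to 52.6) and IL-1β stroma 2 (0.212 CPM, 0.0256 to 0.764), a 230-fold lower level (63.5 to 1907). Control epithelium held 44 UMIs and IL-1β epithelium 0. With 3 UMIs put in place of this 0 the IL-1β level would be 0.0964 CPM. By the interval of the ratio the level was at least 18.6-fold lower. The control epithelial level was 4.71% of the stromal one, above the markers other than Sparc and below Sparc, so stromal transcripts in epithelial barcodes and epithelial transcription were not told apart for Cxcl14 either. In control, 44.8% of stromal Cxcl14 UMIs lay in the cluster led by Srgn and Vit and 36.5% in that led by Prlr and Bglap2, clusters of 95 and 62 control cells. No IL-1β cell joined either cluster, so less Cxcl14 per cell and the lack of such cells cannot be told apart. The transcripts most like Cxcl14 over groups were Gdf10 (r = 0.879), Ecm2 and Zim1.

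Ccl9, a Ccr1 ligand of myeloid cells (ENSMUSG00000019122, chr11:83572919-83578636, − strand), was scarce, and the few cells that held it differed between the libraries. Control stroma held 157 UMIs (11.6 CPM) and IL-1β stroma 2, a 54.8-fold lower level (14.9 to 457). In control, 102 of the 157 UMIs were in the cluster led by Prlr and Bglap2, where no cell carried 3 or more immune markers. The 6 control stromal cells with 3 or more immune markers held 14. Epithelium showed the opposite order, with 7 control UMIs (0.365 CPM) and 296 in IL-1β (9.51 CPM), 26.1-fold higher (12.5 to 65.4). However, 233 of the 296 UMIs were in 1 cell and 277 in the 34 IL-1β cells of an unnamed epithelial cluster led by Serpinb1a and Spib. Without the 3 highest cells the epithelial ratio was 5.39 (1.93 to 20.9), and without that cluster and the airway secretory-like cells it was 1.71 (0.690 to 4.82), neither past 2-fold. In AT2-lineage-like cells Ccl9 had 6 control and 9 IL-1β UMIs, below the minimum of 20.

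Ccl20, which draws Ccr6-bearing dendritic cells, B cells and Th17 cells to mucosal surfaces (ENSMUSG00000026166, chr1:83116766-83119167, + strand), had the highest ratio of any member. Control epithelium held 22 UMIs (1.15 CPM, 0.719 to 1.74) and IL-1β epithelium 5465 (176 CPM, 171 to 180), 153-fold higher (101 to 244). Most of these transcripts came from few cells: the 34 IL-1β cells of the cluster led by Serpinb1a and Spib, 1.32% of the IL-1β epithelium, held 82.0% of its Ccl20 UMIs at 7806 CPM, and 5 cells of the whole epithelium held 50%. The 9 airway secretory-like cells held a further 496 UMIs (2234 CPM). The cell with the most Ccl20 UMIs (1054 of its 33341 UMIs) was the same cell that held 233 Ccl9 UMIs.

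Outside these cells Ccl20 levels were low. Without both groups, 487 UMIs remained in IL-1β epithelium against 16 in control, 19.2-fold higher (11.7 to 33.9). AT2-lineage-like cells stood at 0.834 CPM in control and 12.4 in IL-1β, 14.8-fold higher (8.11 to 30.1), and their 3 IL-1β clusters ran from 6.31 to 16.1. Over 13 alternatives of the processing the ratio in this class ran from 13.7 to 81.2. DATP-like cells, named by the marker rule for the damage-associated transient progenitors, stood at 23.0 in IL-1β, with 0 DATP-like cells in control, and control AT1-like cells at 1.56. In DATP-like cells the DATP markers summed to 2378 CPM, below the 4210 of the unnamed cluster led by AW112010 and Cldn4. Their AT2-lineage markers summed to 89202 CPM, against 29259 in that cluster. The name and the 0 in control thus rest on the naming rule. The Ccl20-rich cells lay almost wholly in the IL-1β library, and its stromal clusters of at least 9 cells other than the Fmod-led one read 5.81 to 11.9 CPM. The highest of these rests on 4 UMIs in the 21 IL-1β cells of the cluster led by Bend7 and Nebl. There AT2-lineage markers summed to 41092 CPM, against 6052 over all IL-1β stroma, so it is not clean stroma. Low transcription in AT2-lineage-like cells and transcripts of the Ccl20-rich cells in other barcodes were therefore not told apart. After thinning, 0.399% of control and 6.28% of IL-1β epithelial cells held a Ccl20 UMI (1.09% and 10.4% before), so the transcript was found in a minority of cells in both libraries. Stroma held 133 UMIs in control (9.82 CPM) and 279 in IL-1β (29.5), 3.0-fold higher (2.44 to 3.72). The Fmod-led cluster held 115 of the former and 198 of the latter, and without the 3 highest cells the stromal ratio was 1.52 (1.11 to 2.09). In control, stroma was 8.56-fold above epithelium (5.42 to 14.1), but 1.35-fold without the Fmod-led cluster. Tff2 (r = 0.831), a secreted trefoil peptide, Ehd1 and Ctsz were most like Ccl20 over groups.

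**Figure D3:**
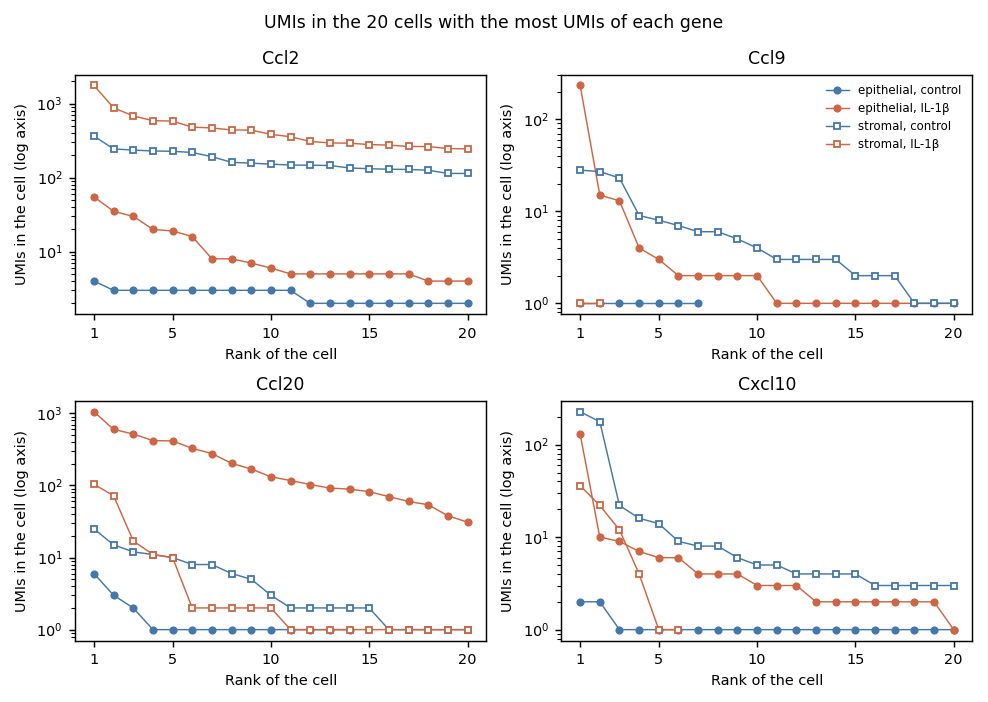
UMIs (log axis) in each of the 20 cells with the most UMIs of Ccl2, Ccl9, Ccl20 and Cxcl10, by rank, for epithelial cells (filled circles) and stromal cells (open squares) of the control (blue) and IL-1β (orange) libraries. The Ccl9 and Cxcl10 curves of IL-1β epithelium drop from 233 to 15 and from 130 to 10 after the highest cell, whereas Ccl20 goes from 1054 to 600 and Ccl2 in IL-1β stroma from 1763 to 878.

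Cxcl10, the interferon-inducible Cxcr3 ligand that attracts T cells and NK cells (ENSMUSG00000034855, chr5:92346638-92348889, − strand), stood in opposite directions in both classes. In epithelium it had 28 control UMIs (1.46 CPM) and 251 IL-1β UMIs (8.07 CPM), 5.52-fold higher (3.73 to 8.48). In stroma it had 589 control UMIs (43.5 CPM) and 76 IL-1β UMIs (8.04 CPM), 5.41-fold lower (4.26 to 6.97). Both sums rested on single cells. In IL-1β epithelium 1 cell held 130 UMIs, and without the 3 highest cells the ratio was 2.73 (1.72 to 4.50), no longer past 2-fold. In control stroma 2 cells of the Fmod-led cluster held 227 and 177 UMIs. Without the 3 highest cells stroma stood at 163 against 6 UMIs, 18.9-fold lower (8.51 to 52.3), and without the whole Fmod-led cluster the ratio was 0.557 (0.420 to 0.733), not past 2-fold.

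The epithelial Cxcl10 UMIs of the IL-1β library lay mostly in an unnamed cluster of 382 cells led by Cd14 and Slc26a4 (163 of 251 UMIs, 37.6 CPM). Of these 163 UMIs, 130 were in 1 cell, without which the cluster would stand below the next. The unnamed cluster led by AW112010 and Cldn4, which had the highest sum of DATP markers of the epithelial groups (4210 CPM) and in which all 10 AT1 markers were above the other epithelial cells, stood at 9.21, and AT2-lineage-like cells stood at 1.37 against 1.06 in control, a ratio of 1.29 (0.638 to 2.72). In control the AT2-lineage-like level was 2.44% of the stromal one, near the median of the stromal markers in these cells (2.13%). In IL-1β it was 17.1% (markers 2.12%). For the control value, stromal transcripts and transcription in AT2-lineage-like cells were not told apart, so this ratio is read as no measure of a difference. After thinning, 0.719% of control and 1.59% of IL-1β epithelial cells and 4.25% and 1.06% of stromal cells held a UMI (before, 2.02%, 2.59%, 8.42% and 1.26%).

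Cxcl16, a membrane-anchored ligand of Cxcr6 that Adam10 can shed (ENSMUSG00000018920, chr11:70453983-70459984, − strand), was found in both classes, with ratios near 1. It stood at 101 CPM (96.6 to 106) in control epithelium and 116 (112 to 120) in IL-1β epithelium, a ratio of 1.15 (1.09 to 1.22), and at 69.2 and 80.8 in stroma, a ratio of 1.17 (1.06 to 1.29). It differed between epithelial groups. Control AT1-like cells stood at 284 CPM (266 to 303) against 55.3 in AT2-lineage-like cells, and in IL-1β the cluster led by AW112010 and Cldn4 stood at 274 (260 to 288) against 56.0. Both groups had high AT1 marker sums (23112 and 12560 CPM), but the IL-1β cluster led by Serpinb1a and Spib, at 261 CPM of Cxcl16, had 1400, and the cluster led by Cd14 and Slc26a4, at 142, had 2570. After thinning, 72.6% of control AT1-like cells and 23.9% of AT2-lineage-like cells held a Cxcl16 UMI (90.7% and 49.7% before). The level in AT2-lineage-like cells was the same within counting error in both libraries (ratio 1.01, 0.918 to 1.12). Over 13 alternatives of the processing this ratio ran from 0.893 to 1.42. Ddx56 (r = 0.846), Wars and Schip1 were most like it.

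Cxcl17, a mucosal chemokine of airway and lung epithelium (ENSMUSG00000060188, chr7:25400053-25412886, − strand), was the one member that was epithelial in both libraries. It stood at 24.7 CPM (22.5 to 27.1) in control and 61.0 (58.3 to 63.8) in IL-1β epithelium, 2.47-fold higher (2.23 to 2.73). With cells taken by their own markers in place of clusters the ratio was 2.27 (1.85 to 2.80), not past 2-fold. Stroma held 14 and 41 UMIs. The stromal level was 3.97% and 9.39% of that in AT2-lineage-like cells. The 9 AT2-lineage markers appeared in stroma at a median of 3.38% (2.63% to 7.65%) and 6.55% (5.15% to 14.8%) of their own level there. Stromal Cxcl17 lay above these medians and within these ranges. Stromal transcription and AT2 transcripts in stromal barcodes were therefore not told apart. The 4.19-fold higher stromal Cxcl17 level in IL-1β (2.24 to 8.33) is thus not read as stromal expression. AT2-lineage-like cells stood at 26.0 in control and 46.2 in IL-1β, 1.78-fold higher (1.56 to 2.02) and not past 2-fold. As in every comparison of this class, the libraries lay in different clusters: 880 of 893 control cells were in the cluster led by Bex2 and Bex4, which held 0 IL-1β cells. The IL-1β cluster led by Cd14 and Slc26a4 stood at 87.1 and the 9 airway secretory-like cells at 766, of which 3 cells held 79.4% of the UMIs. Its pattern over groups was most like those of Ceacam1 (r = 0.976), Sftpd and Tjp3.

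**Figure D4:**
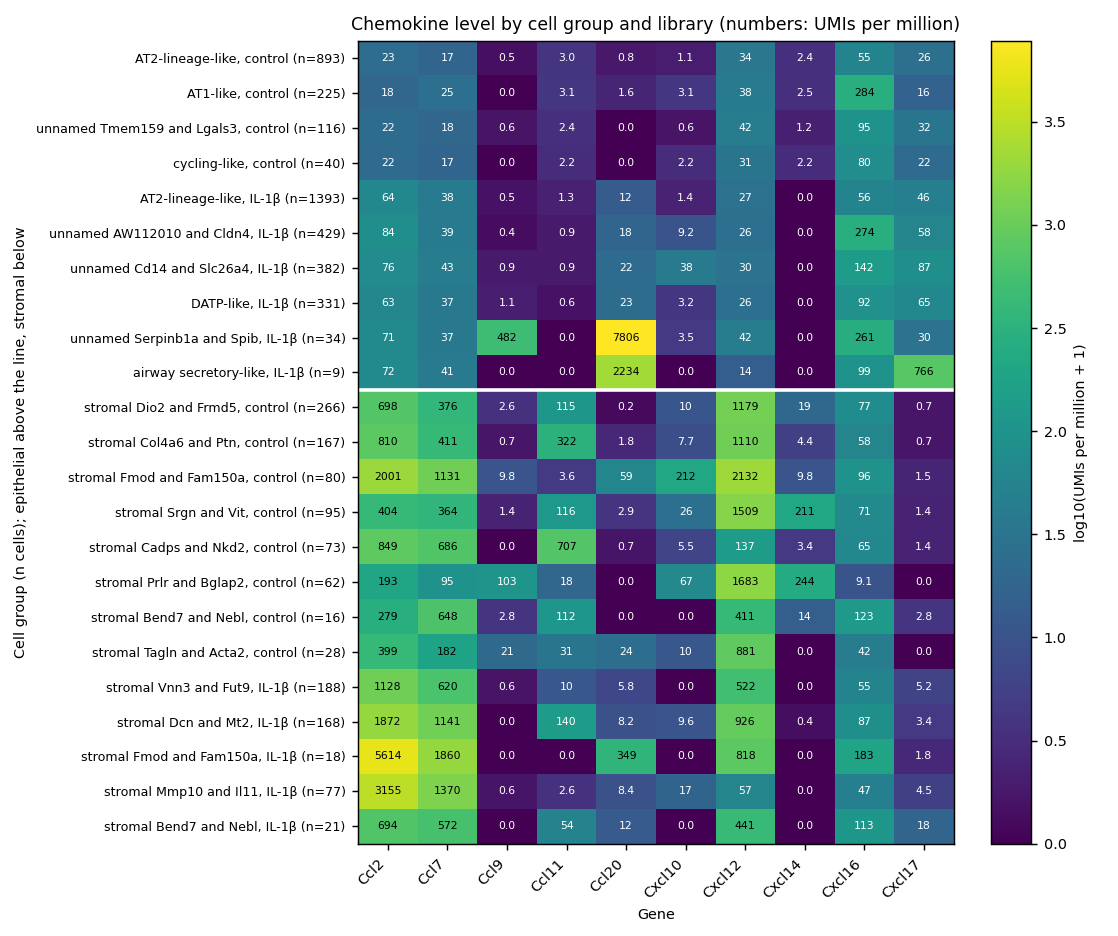
Level of the 10 chemokines (columns, CPM printed in each cell, color on a log10 scale) in epithelial groups (above the white line) and stromal clusters (below) with at least 9 cells of 1 library; clusters are called by their 2 leading genes. Ccl20 reaches 7806 in the IL-1β cluster led by Serpinb1a and Spib, Cxcl16 284 in control AT1-like cells, and Ccl2 5614 in IL-1β cells of the stromal cluster led by Fmod and Fam150a.

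Counted over the 10 members, IL-1β epithelium was higher past 2-fold for 5 (Ccl2, Ccl9, Ccl20, Cxcl10 and Cxcl17) and lower for 1 (Cxcl14), where 4.39% of 13240 genes were higher and 3.29% lower. Of the 5, Ccl2 lay near the level of stromal markers in epithelium, and Ccl9 and Cxcl10 were no longer past 2-fold without the 3 highest cells, nor Cxcl17 with cells taken by their own markers. The members' median log2 ratio was 1.18, against 0.06 for all genes tested. IL-1β stroma was higher for 4 (Ccl2, Ccl7, Ccl20 and Cxcl17) and lower for 4 (Ccl9, Ccl11, Cxcl10 and Cxcl14), where 3.08% of 12841 genes were higher and 6.07% lower. Of these 8, Cxcl17 lay within the range of AT2-lineage markers in stroma and is not read as stromal expression. Ccl7 and Ccl20 were not past 2-fold without the 3 highest cells, Cxcl10 without the Fmod-led cluster, and Ccl11 relative to the median of all genes. The median of the members was -0.31, close to the -0.33 of all genes. In AT2-lineage-like cells 2 of 9 members tested were higher (Ccl2 and Ccl20) and 1 lower (Cxcl14), where 4.35% of 12338 genes were higher and 2.38% lower. For all 3, transcripts of other cells were not told apart from their own: Ccl2 stood at 2.77% and 3.04% and control Cxcl14 at 4.98% of the stromal level, and Ccl20 as given above. For AT1-like and DATP-like cells no ratio was formed, since AT1-like cells numbered 225 in control and 2 in IL-1β and DATP-like cells 0 and 331. These numbers rest on the naming rule, which left the IL-1β cluster led by AW112010 and Cldn4 unnamed.

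**Figure D5:**
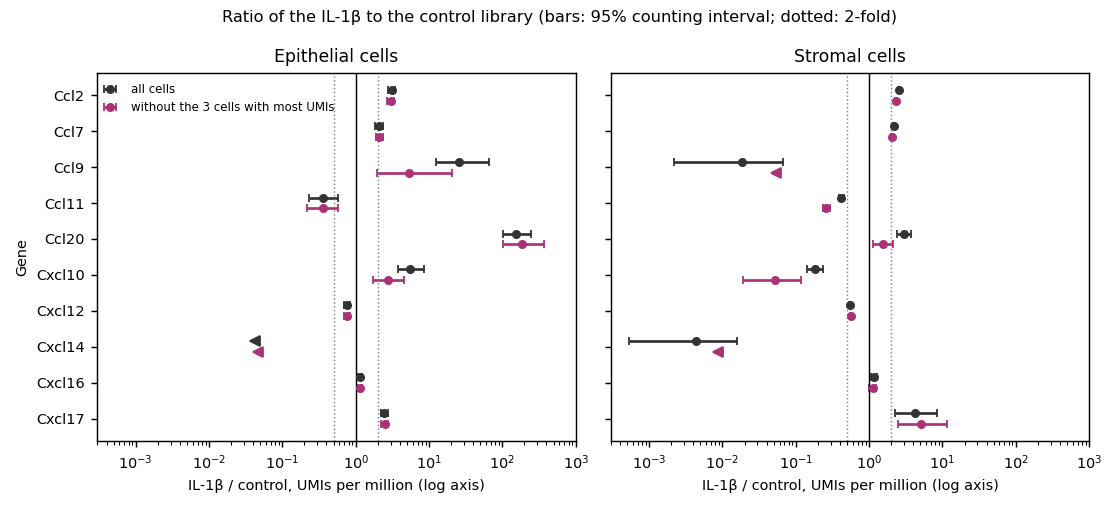
Ratio of the level in the IL-1β to that in the control library (log axis) for the 10 chemokines in epithelial (left) and stromal (right) cells, over all cells (black) and without the 3 cells with the most UMIs of the gene in each group (purple), with 95% counting intervals. Triangles are ratios with 3 UMIs put in place of a count of 0 in IL-1β, and dotted lines mark 2-fold. Cxcl10 lies at 5.52 in epithelium and 0.185 in stroma.

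The stromal cells fell into 11 clusters, 5 of them of 1 library alone and most others mainly of 1, so that a cluster may be a library's cells rather than a cell type. The Fmod-led cluster held 80 control and 18 IL-1β cells. Within it Ccl2 stood at 2001 CPM in control and 5614 in IL-1β, Ccl7 at 1131 and 1860, and Ccl20 at 59.3 and 349. Cxcl12 stood at 2132 and 818. The orders of these 4 genes were the same as over all stromal cells. Those sums include this cluster, which held 115 of 133 control and 198 of 279 IL-1β stromal Ccl20 UMIs. In the cluster led by Bend7 and Nebl (16 control and 21 IL-1β cells) Ccl7 and Cxcl12 went the other way, and Ccl2 and Ccl20 did not. There Ccl7 had 232 of 357869 control and 192 of 335806 IL-1β UMIs, and Cxcl12 had 147 and 148. Contractile markers in the Fmod-led cluster summed to 3817 CPM in control and 1082 in IL-1β, and endothelial markers to 2.06 and 664. Its cells thus differed between the libraries beyond their chemokines, and the part of this in the values was not tested. The 4 IL-1β stromal cells with 3 or more endothelial markers were all in this cluster. They held 719 of its 3185 IL-1β Ccl2 UMIs and of the 20072 over all IL-1β stroma.

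Signaling receptors for most of these chemokines were nearly absent from the organoids. Over all 4 sums of class and library, Ccr2 had 1 UMI, Ccr3 0, Ccr6 6, Cxcr3 3, Cxcr4 12 and Cxcr6 5. Of the 15 receptors listed, 2 reached 20 UMIs in the epithelial comparison and 3 in the stromal one. Ccrl2 had the most UMIs of the 15, 199 over the 4 sums. In IL-1β stroma Gpr35 (53 against 6 UMIs, 12.7-fold) and Ccr1 (49 against 7, 10.0-fold), the receptor of Ccl9, were higher past 2-fold. Among the scavenger receptors, which take up chemokines without signaling through G proteins, Ackr3, which binds Cxcl12, fell from 19.9 to 1.69 CPM in stroma, a ratio of 0.0852 (0.0480 to 0.141). Ackr1, a receptor of venular endothelium, had 0 UMIs in control stroma and 59 in IL-1β, at least 22.2-fold higher, in the library in which endothelial markers were also higher.

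Over the wider list of 82 pathway genes found in the files, 11 of 50 tested were higher and 2 lower in IL-1β epithelium (median log2 ratio 0.42), and 9 of 57 were higher and 10 lower in IL-1β stroma (median -0.16). Of all genes tested, 4.39% were higher and 3.29% lower in epithelium, and 3.08% higher and 6.07% lower in stroma. The chemokines listed as neutrophil-attracting, a list that includes Pf4, were higher for 5 of 6 in epithelium and 3 of 6 in stroma. Pf4 was among those higher in epithelium (49.5 against 17.1 CPM) and not among those in stroma. Of the other CC and CXC chemokines, epithelium had 2 higher of 8, Ccl8 (75.8 against 16.5 CPM) and Cx3cl1 (41.8 against 11.5), and 1 lower, Ccl6. Ccl8 was 17.0-fold higher in stroma than in epithelium of the IL-1β library. Epithelial Ccl6 rested on 49 control and 5 IL-1β UMIs, and in control it was 8.99-fold higher in stroma. Stromal transcripts in epithelial barcodes and epithelial transcription were not told apart for Ccl6. Stroma had 1 higher of 11, Ccl8 (1289 against 308), and 5 lower, led by Cx3cl1 (16.6 against 42.9), Ccl5 (1.06 against 26.1), Ccl6 (0 against 23.0) and Ccl12 (0.317 against 20.1). Control stroma held 6 cells with 3 or more immune markers and IL-1β stroma 0. The share of these UMIs in those cells was not measured.

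Genes of the signaling upstream of the members were counted in each class. Of 16 IL-1 and NF-kB genes tested, 3 were higher in IL-1β epithelium, all of them targets and regulators of NF-kB: Nfkbia (345 against 94.8 CPM), Relb (53.8 against 18.3) and Tnfaip3 (26.5 against 8.66). In stroma 0 of 16 were past 2-fold in either direction. Over all genes tested 4.39% were higher in epithelium, and 3.08% were higher and 6.07% lower in stroma. Il1r1, the signaling receptor of IL-1β, stood at 4.90 and 4.56 CPM in control and IL-1β epithelium and at 39.4 and 39.7 in stroma. Of the interferon signaling genes, Irf9 (10.4 against 26.7 CPM) and Irf7 (7.51 against 23.5) were lower past 2-fold in IL-1β stroma, in the same stromal sums as Cxcl10, and neither was past 2-fold in epithelium. No test compared the classes with each other.

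Of the enzymes that process chemokines, Mmp9 was higher past 2-fold in both classes, from 0.209 to 1.41 CPM in epithelium and from 3.10 to 66.9 in stroma, and no other of the 6 was in either sum. The stromal Mmp9 level was 14.9-fold the epithelial one in control and 47.3-fold in IL-1β, the latter near the ratio of the stromal markers, so the epithelial values are not read as epithelial expression. Adam10 stood at 69.8 and 76.9 in control and IL-1β epithelium, and Dpp4, which trims the amino terminus of Cxcl10, Cxcl12 and Ccl11, at 81.6 and 67.9 in epithelium and 4.21 and 5.60 in stroma. Among proteoglycans that hold chemokines at the surface, Sdc1 was higher in IL-1β stroma (289 against 75.0 CPM), and Gpc3 was lower in both classes (4.37 against 29.5 in epithelium and 0.529 against 3.77 in stroma). The stromal Gpc3 values rest on 5 and 51 UMIs, and in control stood at 0.128 of the epithelial level. Stromal transcription and epithelial transcripts in stromal barcodes were not told apart for Gpc3. Ccl2, Cxcl10, Cxcl16 and Cxcl17 each overlap a counted gene on the other strand. The use of strand in counting is not described in the sources used here, and whether reads of 1 gene of a pair were counted for the other was not tested.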

How the data were processed

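The authors deposited raw UMI counts per gene and cell from Cell Ranger on GRCm38, with Scanpy 1.3.6 also named in the submitters' notes. Cells needed over 500 genes, under 7000 genes and over 2000 UMIs, and scrublet was run as the methods describe (scores over 0.7, or cluster means over 0.6, removed). Cells were clustered with scanpy 1.11.5 and leidenalg 0.10.2 (50 components, 15 neighbors, resolution 1.0), without chemokines and their receptors, into epithelial and stromal cells, and each class again. Clusters took the name whose markers were highest by a margin of 0.1 (log2, pseudocount 0.1), a rule set after the clusters were seen. UMIs were summed per group and library, with exact Poisson, conditional binomial and Clopper-Pearson 95% intervals. A count of 0 allowed 3. In simulated counts, in which 200 genes were changed, 99.5% were recovered in epithelial (13257 genes run) and in stromal cells (12819), and the simulated ratio lay inside its interval for 95.1% and 95.9%. The changed genes had at least 100 UMIs and changes well beyond 2-fold, so recovery near 2-fold or on fewer UMIs was not checked. The simulated counts were independent Poisson draws, the model that the intervals assume. They hold no clumping of UMIs in few cells, so they do not check the intervals of genes such as Ccl9, Ccl20 and Cxcl10.

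The 10 members are all named, pathway genes past 2-fold are named with up to 4 per group, those with most UMIs first, and like genes are the 3 of 11488 with the highest r of log2(CPM + 1) over groups of at least 10 cells. Other pathway genes were named after their values were seen. Members and lists were chosen with earlier results of these data known. Alternatives varied the cell filter, doublets, resolution, clustering genes, seed, joint or separate clustering, scaling, the minimum count and the cells included. One gene of the interferon signaling list is not reported here.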

Additional observations from a re-analysis of the deposited data

Results flagged for a closer look

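Cxcl10 and Ccl9 stood past 2-fold in opposite directions in both cell classes, and this difference between the classes was not tested. The log2 ratio of the IL-1β to the control library was 2.47 in epithelium and -2.44 in stroma for Cxcl10, and 4.70 and -5.78 for Ccl9. In each case a few cells carried much of the sum: 59.4% of the epithelial Cxcl10 UMIs in IL-1β and 72.3% of the stromal ones in control lay in 3 cells, as did 88.2% of the epithelial Ccl9 UMIs in IL-1β and 49.7% of the stromal ones in control.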

How the results depend on the processing

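With 1 library per condition there was no replicate to leave out. No paired analysis was possible because each group has 1 sample. Over the alternatives, 190 counts of genes past 2-fold stayed within 1.5 times the reported one and 10 did not, 104 log2 ratios moved and 1 reversed while 634 moved by less than their counting interval, and 36 of the percents moved while 4 did not, and the cause was not tested except as stated. Taking cells by their own markers gave 2 members higher and 0 lower in epithelium, 2 higher in stroma, 1 lower pathway gene in epithelium, and 1 member lower in stroma than in epithelium of the IL-1β library. A minimum of 100 UMIs gave 0 lower in epithelium and 0 lower in AT2-lineage-like cells, since Cxcl14 was no longer tested. The remaining alternatives of this kind were chosen after seeing the data. Without the 3 highest cells, 3 members were higher in epithelium and 2 in stroma. Without the airway secretory-like cells and the cluster led by Serpinb1a and Spib (45 cells over both libraries), 1 member was lower in stroma than in epithelium of the IL-1β library, and Ccl20 turned to a log2 ratio of 0.88 in favor of stroma. The AT1-like and DATP-like comparisons could not be made, since either class had fewer than 10 cells in a library. Ccl2 and Ccl20 were higher past 2-fold in epithelium under all 15 alternatives run for them. Epithelial Ccl2 lay near the level of stromal markers in epithelium and is not read as epithelial expression. The epithelial Ccl20 ratio ran from 19.2 to 194 over these alternatives. In epithelium, Ccl9 rested on few cells, and Cxcl14 on 44 UMIs in control and 0 in IL-1β.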
